A study of Mus musculus with 12 samples.

Results

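Lipocalin 2 (Lcn2), haptoglobin (Hp) and 8 further genes of the acute-phase response, Hpx, Saa1, Saa2, Saa3, Orm1, Orm2, Apcs and Crp, were followed in 3 tissues of mice given corticosterone (CORT), the main glucocorticoid of rodents. These 10 genes were chosen by symbol from the 22276 genes listed in the series, with earlier results of the same data known, because Lcn2 and Hp differed between CORT and vehicle. All 10 were listed in the gastrocnemius, a muscle of the lower leg, in liver, and in white adipose tissue of the gonadal depot (gonadal WAT). The values below are therefore a description of chosen genes and no test of them. Lcn2 rose with CORT in 5 of the 6 pairs of CORT and vehicle libraries, and Hp in 5 of 6, whereas in liver Saa1 fell with CORT in both genotypes and Saa2 in mice with an intact receptor. Hpx, Saa3, Apcs and Crp were not called in any comparison in which they were tested. Apcs could be tested in liver only, and Crp in liver and gonadal WAT only.

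The acute-phase response is the change in plasma proteins that follows infection, injury or stress. Hepatocytes make most of these proteins, and interleukin 6 acting through STAT3, interleukin 1 and tumor necrosis factor acting through NF-kB, and the C/EBP transcription factors switch their genes on. Glucocorticoids act together with these cytokines on many of the genes, but also damp the cytokines themselves. White adipose tissue is another known source of haptoglobin, lipocalin 2, orosomucoid and serum amyloid A3.

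The mice were C57BL/6J males aged 8 weeks at the start, and all 12 groups carried Nr3c1, the gene of the glucocorticoid receptor, with exon 3 flanked by loxP sites. GRf/f mice had no Cre, whereas GRmKO mice also carried Cre under the skeletal actin promoter of Acta1, so that the receptor was deleted in myofibers and not by design in liver or fat. For 4 weeks they drank water with 1% ethanol (vehicle) or with the same plus CORT at 100 µg/mL. Each of the 12 combinations of tissue, genotype and treatment was 1 RNA-seq library made from pooled RNA of 3 mice, so no group had a replicate and the spread between mice was not measured. Levels are counts-per-million (CPM), the expected count of a gene divided by the total of its library. The totals were 19394572 to 20940660 counts, at which the floor of 3 counts is 0.143 to 0.155 CPM. Values in parentheses are 95% counting intervals, which cover counting error only. A gene is called higher or lower, and is said to have risen or fallen, where NOISeq for data without replicates, the method of the study, gave a probability of at least 0.9. This is not a p-value. A gene had to be above 0 in each of the 4 libraries of its tissue to be tested, which left 13543 genes in gastrocnemius, 12485 in liver and 14218 in fat.

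The labelled tissues held their defining markers. The 8 skeletal muscle markers summed to 106856 to 147348 CPM in gastrocnemius and to at most 203 CPM elsewhere. The 15 hepatocyte markers summed to 107169 to 166381 CPM in liver, and the 10 adipocyte markers to 28067 to 37729.5 CPM in gonadal WAT. Neither list was silent elsewhere. In gonadal WAT the hepatocyte list summed to 4977 to 5900.1 CPM, of which Cyp2e1 alone held 4877 to 5824 CPM. In liver the adipocyte list summed to 784 to 2587 CPM, of which Pck1 alone held 762 to 2563 CPM. Nr3c1 in GRmKO gastrocnemius stood at 41.2% of GRf/f under vehicle and at 39.2% under CORT, and at 81.5% to 109.7% of GRf/f in the other tissues. The deposited value counts the whole transcript, so it does not show exon 3 by itself.

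Promoters of 8 of the 10 genes were found in the RefSeq table for GRCm38.p6, those of Hp and Orm1 not being listed there. In the 250 bases before the transcription start, both strands were searched for the C/EBP core TTGCNNAA, the glucocorticoid receptor hexamer AGAACA, the STAT palindrome TTCNNNGAA and the NF-kB consensus. A C/EBP core was present in 6 of the 8 promoters, against 9.55% of all 27025 promoters in the table. The receptor hexamer was present in 3 of 8, those of Orm2, Apcs and Crp, against 16.2% of all promoters. The STAT palindrome was present in 1 of 8, that of Apcs, against 7.18%, and the NF-kB consensus in 0 of 8, against 7.01%. The 8 promoters were not independent, since Saa1 and Saa2 are near copies. A match describes letters only. The 30 bases around each C/EBP match are shown, since this was the match found in the most promoters among the 4 motifs searched, in the direction of transcription, with the match in capitals.
Lcn2: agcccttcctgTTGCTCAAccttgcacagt
Hpx: tggctggaaatTTGCTGAAgggggtagggg
Saa1: ctgtgctcccaTTGCACAAtgagggagaat
Saa2: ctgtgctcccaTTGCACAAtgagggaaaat
Saa3: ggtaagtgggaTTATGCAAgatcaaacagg
Orm2: gagagaacattTTGCGCAAgacatttccca
The Lcn2 sequence lies on the minus strand at chr2:32387937-32387966, with the match 216 to 209 bases before the start. In GENCODE it falls in an exon of a further Lcn2 transcript that was not the one retained, whereas the other sequences fall in no exon. That of Hpx lies on the minus strand at chr7:105600298-105600327, 200 to 193 bases before the start. Those of Saa1 (minus strand, chr7:46743144-46743173, match 182 to 175 bases before the start) and Saa2 (plus strand, chr7:46751639-46751668, match 183 to 176 bases before) had 29 of 30 bases in common. In Saa3 (minus strand, chr7:46715757-46715786) the core read on the opposite strand 99 to 92 bases before the start. In Orm2 (plus strand, chr4:63362318-63362347) it was its own reverse complement, 120 to 113 bases before the start, and the receptor hexamer lay just upstream of it.

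Lcn2 encodes a small secreted protein that binds bacterial siderophores and so withholds iron. Its gene lies on chromosome 2 (GRCm38, 32384633 to 32388252, minus strand), and the retained transcript ENSMUST00000050785 has 6 exons and 915 bases. In gastrocnemius its level was 1.01 CPM (0.653 to 1.56) in vehicle-treated GRf/f mice and 69.8 CPM (66.1 to 73.6) in CORT-treated GRf/f mice. In GRmKO mice it was 1.14 CPM (0.764 to 1.72) under vehicle and 3.74 CPM (2.98 to 4.67) under CORT. The CORT-treated GRf/f library thus stood far above the other 3 muscle libraries, and the vehicle libraries of both genotypes overlapped in their counting intervals. CORT against vehicle was 69-fold (44.6 to 114) in GRf/f mice, a called rise, and 3.27-fold (2.02 to 5.44) in GRmKO mice, which was not called by NOISeq but passed a call at 2-fold. That call took in 6.53% of all genes tested in the comparison. Under CORT the level in GRmKO mice was 0.0536 times that in GRf/f mice (0.0419 to 0.0675), a called decrease. Under vehicle the ratio was 1.13 (0.597 to 2.18) and not called.

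In liver the level of Lcn2 was 4.8 CPM (3.93 to 5.81) in vehicle-treated and 196 CPM (189.7 to 202) in CORT-treated GRf/f mice. In GRmKO mice it was 3.16 CPM (2.46 to 4) and 84.9 CPM (81.1 to 89). Both CORT libraries were above both vehicle libraries, the GRf/f one higher. The rise with CORT was 40.8-fold (33.6 to 50.5) in GRf/f mice and 26.9-fold (21.1 to 35.2) in GRmKO mice. Under CORT the GRmKO liver stood at 0.434 times the GRf/f liver (0.41 to 0.459) and was called lower, although the receptor was not deleted there by design. Under vehicle the ratio was 0.659 (0.474 to 0.908), not called. In gonadal WAT the levels were 11.1 CPM (9.71 to 12.6) and 39.9 CPM (37.2 to 42.8) in vehicle- and CORT-treated GRf/f mice, and 5.21 CPM (4.3 to 6.32) and 42.7 CPM (39.97 to 45.7) in the GRmKO mice. The CORT libraries of both genotypes reached about the same level in fat, from different vehicle levels. The rise was 3.61-fold (3.1 to 4.2) in GRf/f and 8.19-fold (6.67 to 10.2) in GRmKO mice. The genotypes differed 1.07-fold under CORT (0.971 to 1.18) and by a ratio of 0.471 under vehicle (0.369 to 0.598), neither of them called.

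Over the 12 libraries Lcn2 was highest in CORT-treated GRf/f liver, followed by CORT-treated GRmKO liver, CORT-treated GRf/f gastrocnemius and the CORT-treated gonadal WAT of both genotypes. CORT-treated GRmKO gastrocnemius was the only CORT library among the 7 lowest. Neighbours in this order whose intervals overlapped were the gonadal WAT libraries under CORT, then vehicle-treated GRmKO gonadal WAT, vehicle-treated GRf/f liver, CORT-treated GRmKO gastrocnemius and vehicle-treated GRmKO liver in turn, and the vehicle-treated muscle libraries. On the log2 scale, with 0.5 CPM added to each level, the CORT difference of Lcn2 in GRmKO mice minus that in GRf/f mice was -4.17 in muscle, -0.67 in liver and 1.11 in fat. With 1 library a group these differences were not tested.

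**Figure D1:**
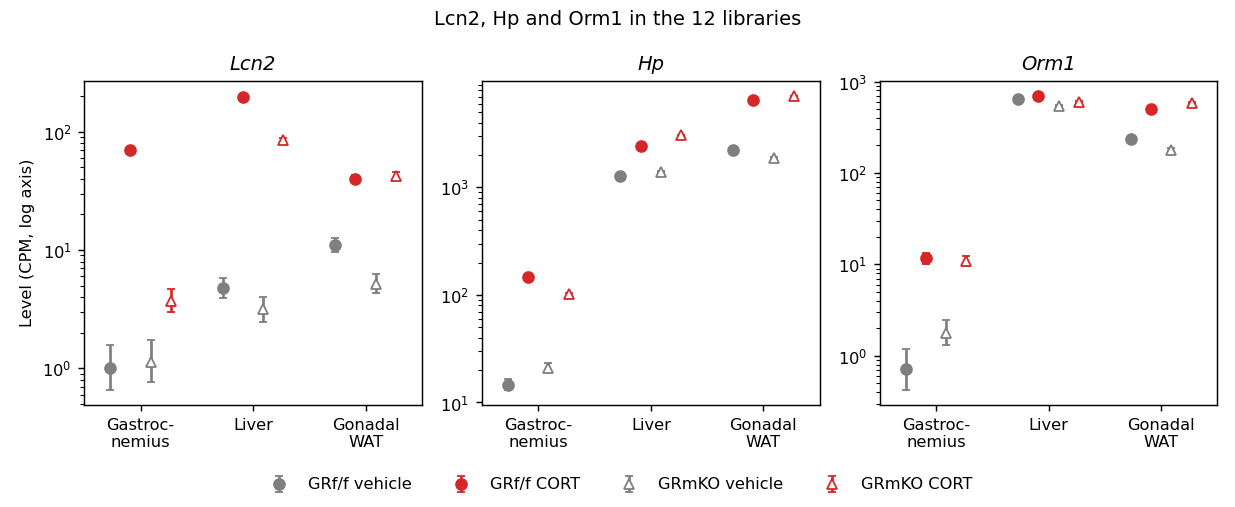
Levels of Lcn2, Hp and Orm1 in counts-per-million (CPM, log axes that differ between panels) in each of the 12 libraries, with 95% Wilson counting intervals as bars and 1 library per point. Grey points are vehicle and red points CORT, filled circles GRf/f and open triangles GRmKO. Lcn2 in CORT-treated gastrocnemius was 69.8 CPM in GRf/f and 3.74 CPM in GRmKO mice, whereas Hp was 146 and 101 CPM.

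Hp encodes haptoglobin, which binds free hemoglobin in plasma. The gene lies on chromosome 8 (109575128 to 109579172, minus strand), and its retained transcript, ENSMUST00000074898, has 5 exons and 1345 bases. In gastrocnemius Hp stood at 14.6 CPM (13 to 16.4) under vehicle and 146 CPM (140.3 to 151) under CORT in GRf/f mice. In GRmKO mice the corresponding levels were 21.1 CPM (19.2 to 23.2) and 101 CPM (96.4 to 105). Both CORT-treated muscles were above both vehicle-treated ones. The rise was 9.99-fold (8.85 to 11.3) in GRf/f and 4.77-fold (4.29 to 5.31) in GRmKO mice, and both were called. GRmKO against GRf/f was 1.45-fold (1.25 to 1.69) under vehicle and 0.692-fold (0.653 to 0.733) under CORT, neither of them called.

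In liver Hp was 1285 CPM (1269 to 1300) under vehicle and 2414 CPM (2393 to 2435) under CORT in GRf/f mice. In GRmKO mice it was 1397 CPM (1381 to 1413) and 3062 CPM (3038 to 3086). The ratio of 1.88 in GRf/f mice (1.85 to 1.91) was not called, and the rise of 2.19-fold in GRmKO mice (2.16 to 2.22) was. These lie on either side of the call. In each group Hp was higher in gonadal WAT than in the other tissues, at 2209 CPM (2189 to 2229.9) and 6458 CPM (6423 to 6493) in vehicle- and CORT-treated GRf/f mice and 1885 CPM (1866 to 1904) and 7081 CPM (7045 to 7118) in GRmKO mice. There it rose 2.92-fold (2.89 to 2.96) and 3.76-fold (3.71 to 3.8). Between genotypes the ratio was 1.09 under vehicle and 1.27 under CORT in liver, and 0.853 and 1.1 in gonadal WAT, none of them called. In the order over the 12 libraries, the 4 muscle libraries were the lowest for Hp and no neighbouring intervals overlapped, so the order stands above counting error only. The CORT difference of Hp in GRmKO minus that in GRf/f mice was -1.05 (log2) in muscle, 0.22 in liver and 0.36 in fat.

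Hpx, on chromosome 7 (105591613 to 105600137, minus strand), encodes hemopexin, which carries free heme to the liver. In liver it was 2376 and 1572 CPM in vehicle- and CORT-treated GRf/f mice, a ratio of 0.662 (0.653 to 0.671). In GRmKO mice it was 2468 and 1981 CPM, a ratio of 0.803 (0.792 to 0.813). Hpx was thus lower under CORT in both genotypes, opposite to Hp, without being called. In gonadal WAT it was 0.452 to 1.14 CPM. In gastrocnemius it was 0.302 CPM (0.139 to 0.66) and 0.155 CPM (0.0526 to 0.455) in GRf/f mice, but 2.04 CPM (1.51 to 2.77) and 4.47 CPM (3.64 to 5.49) in GRmKO mice. The GRmKO muscles were above the GRf/f muscles, 6.76-fold (2.85 to 19.5) under vehicle, and both ratios were not called. Under CORT the ratio of 28.9 (9.58 to 143) rests on 3 counts in the GRf/f library.

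Orm1 and Orm2 encode orosomucoids, abundant plasma glycoproteins that carry drugs and lipids. They neighbour each other on the plus strand of chromosome 4 (63344560 to 63348163 and 63362449 to 63365878), and 27.5% of the 31-base words of the Orm1 transcript occur in another transcript, mostly that of Orm2, as do 32.2% of those of Orm2. How reads were divided between both is therefore uncertain. In gastrocnemius Orm1 was 0.709 CPM (0.42 to 1.18) and 11.6 CPM (10.1 to 13.2) in GRf/f mice and 1.78 CPM (1.3 to 2.48) and 10.8 CPM (9.52 to 12.4) in GRmKO mice. It reached the same level under CORT in both genotypes within counting error, and rose 16.3-fold (9.55 to 30.4) and 6.08-fold (4.24 to 8.87). In liver Orm1 was 541 to 688 CPM in the 4 libraries and was not called.

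In gonadal WAT Orm1 was 237 and 499 CPM in vehicle- and CORT-treated GRf/f mice and 180.3 and 581 CPM in GRmKO mice. The rise was 2.11-fold (2.03 to 2.18) and 3.22-fold (3.1 to 3.34). Orm2 in gonadal WAT was 2.34 and 8.98 CPM in GRf/f mice and 3.83 and 14.5 CPM in GRmKO mice. Its ratio of 3.85 in GRf/f mice (2.75 to 5.38) was not called, whereas the rise of 3.8-fold in GRmKO mice (2.92 to 4.92) was, so that both genotypes had the same ratio within counting error. Orm2 was 17.6 to 27.1 CPM in liver, not called, and stood at 1 to 3.1 counts in every gastrocnemius library, at or near the floor.

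The serum amyloid A genes lie together on chromosome 7, Saa3 at 46711998 to 46715700 and Saa1 at 46740497 to 46742980 on the minus strand, and Saa2 at 46751790 to 46754313 on the plus strand. Their products bind to high-density lipoprotein in the acute phase, Saa1 and Saa2 mainly from liver and Saa3 from macrophages and fat. In liver Saa1 was 82.2 CPM (78.4 to 86.2) under vehicle and 6.86 CPM (5.84 to 8.12) under CORT in GRf/f mice, and 26.2 CPM (24.1 to 28.5) and 6.29 CPM (5.32 to 7.48) in GRmKO mice. The vehicle-treated GRf/f liver was the highest, and both CORT livers were low and alike within counting error. CORT against vehicle was 0.0835 (0.07 to 0.0995) in GRf/f and 0.24 (0.197 to 0.292) in GRmKO mice, both called lower. GRmKO against GRf/f was 0.318 under vehicle (0.289 to 0.351), called lower, and 0.916 under CORT (0.716 to 1.17), not called.

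Saa2 in liver was 9.2 CPM (8 to 10.6) and 1.91 CPM (1.39 to 2.6) in GRf/f mice and 2.69 CPM (2.08 to 3.51) and 1.85 CPM (1.33 to 2.51) in GRmKO mice. Only the vehicle-treated GRf/f liver stood apart. Its fall with CORT in GRf/f mice, to 0.208 (0.143 to 0.293), was called, and the ratio of 0.686 in GRmKO mice (0.436 to 1.04) was not. Between the vehicle-treated livers the ratio was 0.293 (0.214 to 0.397), not called at the level of Saa2. Of the 31-base words of Saa1, 30.1% occur in another transcript, mostly Saa2, and 21.5% of those of the liver Saa2 transcript in another, mostly Saa1, so that their separate levels are uncertain. Outside liver both were at 0 to 5 counts in every library.

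Saa3 was higher in gonadal WAT than in liver, at 3.95 and 8.81 CPM in GRf/f mice and 5.87 and 8.89 CPM in GRmKO mice. In gonadal WAT both CORT libraries were above both vehicle libraries, by 2.23-fold (1.69 to 2.93) in GRf/f and 1.52-fold (1.2 to 1.93) in GRmKO mice, without a call. In liver it was 1.19 and 0.294 CPM in GRf/f mice and 1.96 and 0.632 CPM in GRmKO mice, lower under CORT in both genotypes and not called. In gastrocnemius, where another transcript was retained, it was 0.898, 0.322, 0.203 and 0.228 CPM in the same order of groups.

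**Figure D2:**
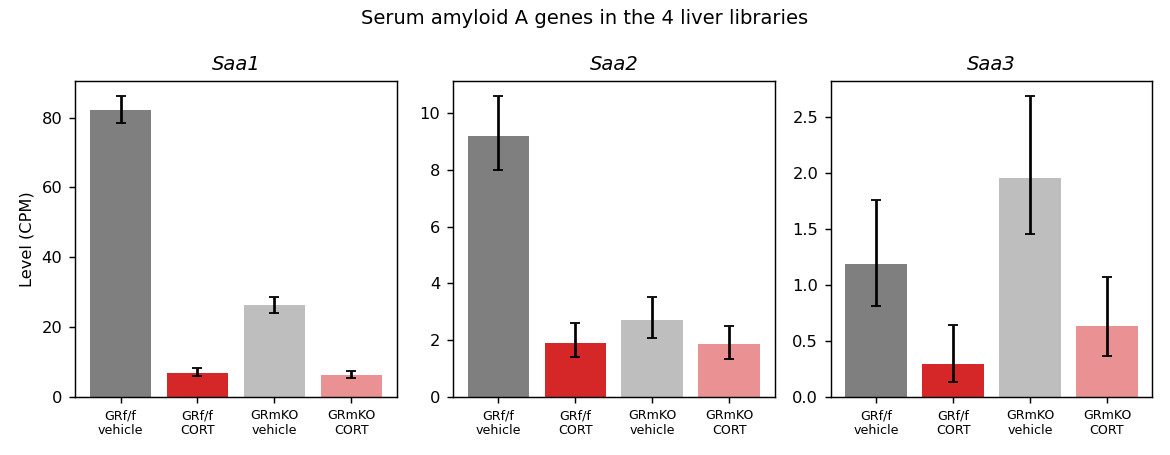
Levels of Saa1, Saa2 and Saa3 in the 4 liver libraries in CPM (axes from 0 that differ between panels), 1 library per bar, with 95% Wilson counting intervals. Grey is vehicle and red CORT, full color GRf/f and pale GRmKO. The vehicle-treated GRf/f liver held 82.2 CPM of Saa1 and 9.2 CPM of Saa2, above the other 3 livers.

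Apcs and Crp encode the pentraxins serum amyloid P component and C-reactive protein, which bind damaged cells and microbes. Apcs is the major acute-phase pentraxin of the mouse, and Crp responds little in this species. In liver Apcs was 33.5 and 38.6 CPM in GRf/f mice and 58.5 and 50.4 CPM in GRmKO mice. Both GRmKO livers were above both GRf/f livers, with ratios of 1.75 under vehicle (1.59 to 1.92) and 1.31 under CORT (1.19 to 1.43) that were not called. Crp in liver was 393 and 515 CPM in GRf/f mice and 422 and 487 CPM in GRmKO mice. It was higher in both CORT livers, 1.31-fold (1.27 to 1.35) and 1.16-fold (1.12 to 1.19), and was not called. In gonadal WAT Apcs was at 0 to 1 counts and Crp at 3 to 13 counts. In gastrocnemius Apcs was at 0 to 3 counts, and Crp was at 0 counts in both GRf/f libraries (0 to 0.194 CPM under vehicle and 0 to 0.198 CPM under CORT), at 3 counts in vehicle-treated and at 27.1 counts, 1.33 CPM (0.912 to 1.93), in CORT-treated GRmKO mice.

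The members called were counted beside all genes tested in the same comparison. Since the members were chosen with these contrasts known, nothing is read from the difference between both shares. In gastrocnemius 6 of the 10 genes were above 0 in all 4 libraries and so were tested. With CORT in GRf/f mice 3 of 6 were called higher (Lcn2, Hp and Orm1) and 0 lower, beside 1.63% of all genes higher and 1.87% lower. In GRmKO mice 2 of 6 were called higher (Hp and Orm1), beside 0.569% higher and 1.41% lower. For genotype 0 of 6 were called under vehicle, beside 1.82% higher and 1.59% lower, and 1 of 6 (Lcn2, lower) under CORT, beside 1.67% higher and 2.19% lower. The median log2 difference of the tested members with CORT was 1.77 in GRf/f and 1.17 in GRmKO muscle, beside -0.08 and -0.10 over all genes.

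In liver all 10 were tested. With CORT in GRf/f mice 1 was called higher (Lcn2) and 2 lower (Saa1 and Saa2), beside 2.74% of all genes higher and 2.15% lower. In GRmKO mice 2 were called higher (Lcn2 and Hp) and 1 lower (Saa1), beside 1.25% and 1.07%. Under vehicle 1 was called lower in GRmKO mice (Saa1), beside 0.224% higher and 0.336% lower, and under CORT 1 (Lcn2), beside 0.641% higher and 0.809% lower. The median log2 difference with CORT was near 0 in liver, 0.14 in GRf/f and -0.17 in GRmKO mice, where 7 of the 10 members were not called in either genotype's comparison. In gonadal WAT 7 were tested, of which 3 were called higher with CORT in GRf/f mice (Lcn2, Hp and Orm1), beside 3.83% of all genes higher and 3.89% lower. In GRmKO mice 4 were called higher (those and Orm2), beside 1.74% higher and 2.69% lower. The medians were 1.07 and 1.68, beside -0.07 and -0.12 over all genes. For genotype 0 of 7 were called in fat under vehicle, beside 0.436% higher and 0.345% lower, or under CORT, beside 0.274% and 0.359%. The 4 comparisons of a tissue share their libraries, so no overlap between them is given.

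**Figure D3:**
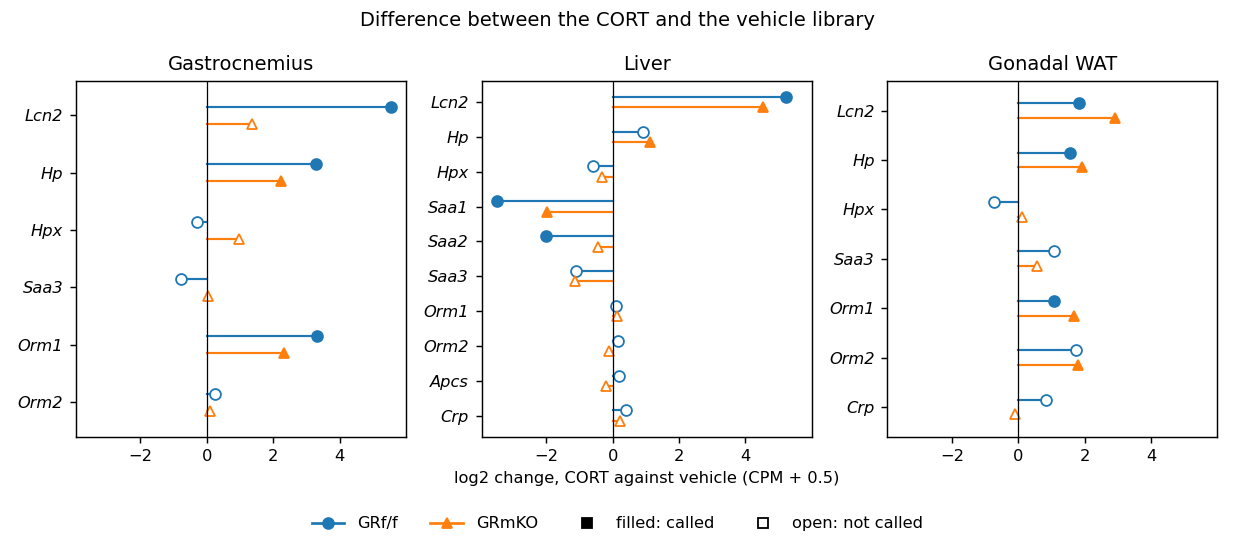
Difference between the CORT and the vehicle library on the log2 scale (CPM plus 0.5) for the members tested in each tissue, with GRf/f as blue circles and GRmKO as orange triangles, 1 library a group. Filled points were called and open points were not. Lcn2 in gastrocnemius was at 5.54 in GRf/f and 1.37 in GRmKO mice, and Saa1 in liver at -3.49 and -1.97.

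Compared per kilobase of the retained transcript, Hp was the highest of the 10 in every gastrocnemius and gonadal WAT library. In CORT-treated GRf/f muscle Hp was at 108 CPM per kilobase, Lcn2 at 76.2 and Orm1 at 14.9. In CORT-treated GRmKO muscle Hp was at 74.9, Orm1 at 14 and Lcn2 at 4.08 CPM per kilobase, so that Lcn2 took the second place only in GRf/f mice. In liver Hpx was the highest under vehicle, at 1585 and 1647 CPM per kilobase in GRf/f and GRmKO mice, and Hp under CORT, at 1795 and 2277. Lcn2 in CORT-treated GRf/f liver reached 214 CPM per kilobase, beside 1049 for Hpx in the same library.

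Other cell types in the muscle samples were followed by their markers, since in bulk tissue more cells of a type and more RNA per cell cannot be told apart. Adipocyte markers were higher in gastrocnemius under CORT. Of 9 tested, 7 were called higher and 1 (Cfd, complement factor D) lower in GRf/f mice, and 5 higher in GRmKO mice, their sum being 419.9 CPM under vehicle and 1018 CPM under CORT in GRf/f mice and 459 and 722 CPM in GRmKO mice. Adipoq, the fat hormone adiponectin, stood at 14.6 and 63 CPM in GRf/f muscle and at 16.8 and 48.2 CPM in GRmKO muscle. Levels were set against gonadal WAT for 9 of the 10 adipocyte markers, Plin4 being left out. Under CORT Plin4 stood at 332 CPM in GRf/f muscle and 1083 CPM in GRf/f fat, and at 163 and 931 CPM in GRmKO mice. The median of the 9 stood at 0.526% of the gonadal WAT level in vehicle-treated and at 2.74% in CORT-treated GRf/f muscle. The highest of them in CORT-treated GRf/f muscle was 5.91%. In GRmKO muscle the median stood at 0.479% and 1.83%. On the same scale Hp was at 0.66% and 2.25% in GRf/f muscle and at 1.12% and 1.42% in GRmKO muscle. Orm1 was at 0.299% and 2.32% in GRf/f and at 0.988% and 1.87% in GRmKO muscle. Hp and Orm1 in CORT-treated muscle thus lay within the range of these 9 adipocyte markers, and the part of adipocytes in their rise was not tested. Lcn2 in CORT-treated GRf/f muscle was at 175% of its level in the gonadal WAT of the same group, above the highest of the 9 markers, and at 8.75% in GRmKO muscle.

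The sum of the hepatocyte markers in gastrocnemius was 47.4 and 114 CPM in GRf/f mice and 144 and 409.8 CPM in GRmKO mice, and in GRmKO against GRf/f mice 2 of 12 tested were called higher under vehicle and 8 of 12 under CORT, among them albumin (Alb, 7.47 CPM in GRf/f and 198 CPM in GRmKO mice). Cyp2e1, a cytochrome that fat also expressed, made up most of the GRf/f sums, at 39 CPM under vehicle and 103 CPM under CORT, a called rise. It stood at 49.8 and 91.1 CPM in GRmKO muscle and was not called between genotypes. The median hepatocyte marker was 0.251 and 0.309 CPM in GRf/f muscle and 2.1 and 9.28 CPM in GRmKO muscle. Of the 15 markers, 6 were at or under the floor in vehicle-treated and 4 in CORT-treated GRf/f muscle, and none in GRmKO muscle. As a share of the liver of the same group the median hepatocyte marker was 0.0081% and 0.00897% in GRf/f muscle and 0.0769% and 0.233% in GRmKO muscle. Hpx was at 0.0828% of liver in vehicle-treated and 0.226% in CORT-treated GRmKO muscle, and Crp at 0.0356% and 0.273%. The levels of Hpx and Crp in GRmKO muscle thus lay near those of the hepatocyte markers, whose part in them was not tested. Lcn2 in CORT-treated GRf/f muscle was at 35.6% of liver and Hp at 6.03%. There the highest hepatocyte marker was Cyp2e1, which fat also expressed, at 2.91%, and the median was 0.00897%. The part of hepatocyte RNA in these levels was not tested.

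Neutrophils store lipocalin 2 and haptoglobin in their granules. The 12 neutrophil markers summed to 2.8 to 6.77 CPM in muscle, 3.1 to 3.68 CPM in liver and 8.46 to 11.3 CPM in fat, and none of those tested (3, 2 and 7) was called in any comparison. In gastrocnemius 5 to 7 of the 12 were at 0. The granule genes Mpo and Ngp were at 0 in all gastrocnemius and liver libraries. The neutrophil sum was 6.77 CPM in CORT-treated GRf/f muscle, and the part of neutrophils in the level of Lcn2 was not tested. Macrophage markers were called lower in CORT-treated GRmKO muscle (8 of 8 tested) and higher in vehicle-treated GRmKO against GRf/f muscle (6 of 8), where their sums were 174 and 174 CPM in GRf/f mice and 573 and 217 CPM in GRmKO mice. With CORT they were called lower in liver in GRf/f mice (6 of 9) and for 1 of 9, Csf1r, in GRmKO mice. In fat 5 of 9 were called higher and 1 lower in GRf/f mice, and 2 higher and 1 lower in GRmKO mice. Their sum in liver was 237 and 81.9 CPM in GRf/f mice and 194 and 125 CPM in GRmKO mice, lower in the same libraries as Saa1 and Saa2, and their part was not tested. In gonadal WAT their sum was 1167 and 2611 CPM in GRf/f and 1430.4 and 2553 CPM in GRmKO mice, higher in the same libraries as Lcn2, Hp and Saa3, and their part there was not tested. Mesothelial markers were not called in any tissue, and epididymis markers, tissue next to the gonadal fat, summed to at most 1.1 CPM.

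**Figure D4:**
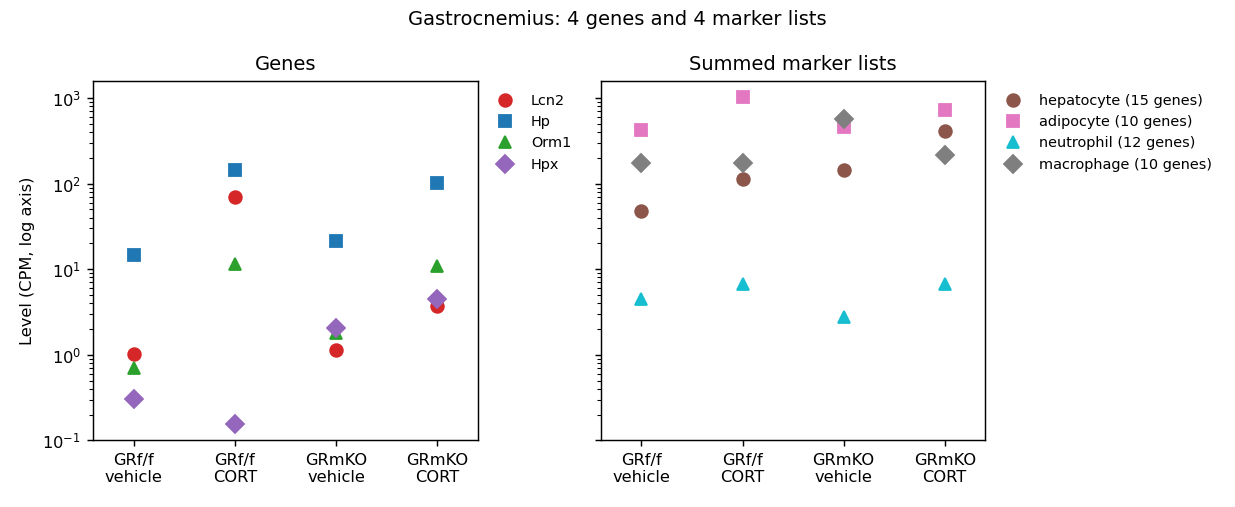
Levels in the 4 gastrocnemius libraries in CPM (log axis), on the left of Lcn2, Hp, Orm1 and Hpx and on the right of the sums of 4 marker lists, 1 library per point and no error bars. Adipocyte markers were at 419.9, 1018, 459 and 722 CPM in the order plotted, hepatocyte markers at 47.4, 114, 144 and 409.8 CPM, and neutrophil markers between 2.8 and 6.77 CPM. Of the hepatocyte sums, Cyp2e1, which fat also expressed, alone held 39, 103, 49.8 and 91.1 CPM.

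The other genes of the response were taken from lists chosen with earlier results of these data known. Of 22 further acute-phase genes, among them the constitutive Saa4, the test covered 14 in muscle, 21 in liver and 19 in fat. With CORT in GRf/f muscle 2 were called higher and 0 lower, namely Serpina3n, a protease inhibitor (5.44 and 36.9 CPM), and Lrg1, a leucine-rich glycoprotein (20.3 and 56.3 CPM). In GRmKO muscle Serpina3n alone was called higher (10.4 and 28.9 CPM). In CORT-treated GRmKO against GRf/f muscle 1 was called lower, Lrg1 (22.8 against 56.3 CPM), and 1 higher, Serpina1a, a protease inhibitor (13.6 against 0.408 CPM).

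In GRf/f liver with CORT 3 of 21 were called higher and 2 lower. Orm3, a further orosomucoid, rose from 4.01 to 32.9 CPM, and Lbp, the lipopolysaccharide-binding protein, from 66.1 to 136 CPM, while Saa4, the constitutive serum amyloid, fell from 502 to 232 CPM. In GRmKO liver Lbp (54.8 to 150.5 CPM) and Orm3 (3.94 to 13.1 CPM) were called higher. Between genotypes under CORT, 1 was called lower in GRmKO liver, Orm3, and 1 higher, Mbl2, a mannose-binding lectin (325 against 153 CPM). The fibrinogen chain gene Fgb, an abundant acute-phase gene of liver, stood at 2369 to 2547 CPM in the 4 livers and was not called. In gonadal WAT 4 of 19 rose in GRf/f and 3 of 19 in GRmKO mice, with none lower. Serpina3n rose from 656 to 1989 CPM in GRf/f mice and by 1.79 on the log2 scale, to 1825 CPM, in GRmKO mice, and Lbp rose from 183 to 481 CPM and from 182 to 394 CPM.

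Of 10 genes that fall in the acute phase, 2 of 10 tested were called lower with CORT in GRf/f liver, namely Serpina6, the corticosteroid-binding globulin (284 to 59.9 CPM), and Apoa1, the main protein of high-density lipoprotein (6186 to 2555 CPM). In GRmKO liver 1 of 10 was called lower (Serpina6, 403 to 85.4 CPM). In gonadal WAT transferrin (Trf) was called lower in both genotypes, from 2990.4 to 647 CPM and from 2592 to 839.9 CPM. In gastrocnemius 5 of 6 tested were called higher in CORT-treated GRmKO than GRf/f mice, 4 of which (Alb, Ttr, Apoa1 and Ahsg) also stand in the hepatocyte list above.

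The inducing cytokines were at low levels throughout. Il6 was at 0 in all liver libraries and at no more than 0.308 CPM in any library, Il1b at no more than 1.3 CPM and Tnf at no more than 1.58 CPM. Of 24 genes of the inducing pathway, 19 were tested in gastrocnemius. With CORT in GRf/f muscle 1 was called higher, Il6ra, the receptor chain for interleukin 6 (7.07 to 36.5 CPM), and 3 lower, Cebpb (114 to 49.6 CPM), Cebpd (53.8 to 23.5 CPM) and Nfkb1. In GRmKO muscle Il6ra was 9.23 CPM under vehicle and 5.74 CPM under CORT, and was called lower than in GRf/f muscle under CORT. Socs3, which restrains STAT3 signaling, was at 15.3 and 12.8 CPM in GRf/f muscle and at 33.9 and 64.9 CPM in GRmKO muscle, called higher in GRmKO mice under both treatments.

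In liver 4 of 19 were called lower with CORT in GRf/f mice and 0 higher. They were Lifr, a receptor for leukemia inhibitory factor (255 to 47.3 CPM), Cebpb (167 to 42.5 CPM), Cebpd (11.6 to 3.24 CPM) and Nfkbia, an inhibitor of NF-kB (42.1 to 19.7 CPM). In GRmKO liver 1 was called lower (Lifr, 166 to 48.1 CPM), and Cebpb under CORT was higher than in GRf/f liver (87.7 against 42.5 CPM). In gonadal WAT 1 of 20 was called higher and 2 lower in each genotype, Cebpd and Nfkbia being the lower ones in both. Stat3 was at 44 to 55.8 CPM in liver and 106 to 118 CPM in fat and was not called in any comparison.

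Of 10 receptors and clearance genes, 2 of 9 tested rose with CORT in GRf/f gonadal WAT. They were Hmox1, the heme oxygenase that breaks down heme (50.1 to 274 CPM), and Cd163, the macrophage receptor for haptoglobin bound to hemoglobin (28.1 to 61.7 CPM). Scarb1, the receptor for high-density lipoprotein, was called lower there. In GRmKO fat Hmox1 alone rose (60.2 to 195 CPM), and Cd163 was at 30.8 and 50.6 CPM. In liver none of 8 was called in any comparison. In gastrocnemius with CORT none of 8 was called in GRf/f mice and 1 (Scarb1, lower) in GRmKO mice. The proposed lipocalin 2 receptor Slc22a17 was at no more than 8.7 CPM in any library.

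Genes with a pattern like that of Lcn2 or Hp were named by Pearson's r of the log2 level over the 12 libraries, centred within each tissue, among 8825 genes. The libraries share their tissue, depth and CORT contrast, so r is given as a description. Nearest to Hp was Serpina3n (r = 0.970), followed by Pygl, the liver glycogen phosphorylase (0.933), Gnmt and Ahcy, enzymes of the methionine cycle (0.909 and 0.906), and Mtif2 (0.904). Serpina3n differed with CORT by 2.65, 0.53 and 1.60 (log2) in GRf/f gastrocnemius, liver and fat and by 1.43, 0.65 and 1.79 in GRmKO mice. The corresponding values of Hp were 3.28, 0.91 and 1.55, and 2.23, 1.13 and 1.91. Among the genes near Lcn2 were Arhgap29 (0.953), Top2b, a DNA topoisomerase (0.922), Anapc16 (0.920) and Nom1 (0.920), whose CORT differences in GRf/f mice were no larger than 0.84. Lcn2 and Hp had an r of 0.792 with each other.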

How the data were processed

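Total RNA of gastrocnemius, liver and gonadal WAT was pooled from 3 mice a group by the authors, sequenced, and quantified with Salmon 1.2.1 (build mm10, the submitters' processing notes) on protein-coding transcripts. The values deposited by the authors are expected counts (estimated counts) for 1 retained transcript a symbol, without scaling between libraries. The paper describes a gene-level import with tximport, with counts derived from abundance (lengthScaledTPM), whereas each deposited value carries 1 transcript identifier. Whether a value was summed over a gene before was therefore not settled. A library held 19394572 to 20940660 counts.

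From these, CPM were computed here with 95% Wilson intervals, and ratios with 95% exact (Clopper-Pearson) intervals, after rounding the counts. Log2 differences had 0.5 CPM added and understate those of low genes. Intervals of ratios had none added. Calls were made with NOISeq for data without replicates, written in Python 3.11.15 with numpy 2.4.6, scipy 1.17.1 and numba 0.67.0 and checked on data with known answers, with 5 technical samples at 20% of the depth, variability 0.02, 0 set to 0.5, no length correction and a threshold of 0.9. A call is not a p-value. The comparisons were CORT against vehicle by genotype and GRmKO against GRf/f by treatment, within a tissue, with groups taken from the labels. Levels were compared between tissues only where the same transcript was retained, which left out Saa2 and, for gastrocnemius, Saa3 among the members. Plin4 was left out of the adipocyte shares. Transcript lengths and positions came from GENCODE M21 (GRCm38), and promoters from RefSeq (GRCm38.p6). Identical words of 31 bases were counted between transcripts.

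The 10 genes, the lists of other genes and the cell type markers were chosen with earlier results of these data known. All 10 members are given in every library. Genes of a list are named from those called, at most the 3 with the largest change in a direction, or where they define a cell type. Not every called gene of a list is named, and others named were chosen after their values were seen. For Lcn2 and Hp the 5 genes of most similar pattern are named, among those with a mean of at least 1 CPM in each tissue, of which 1 is not reported here. TMM factors (edgeR 4.0.16), DESeq2 1.42.0 size factors, no filter on low counts, a call at 2-fold and pseudocounts of 0.1 and 2 CPM were tried as alternatives.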

Additional observations from a re-analysis of the deposited data

Results flagged for a closer look

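The following differences had opposite signs in both groups of a pair, on the log2 scale with 0.5 CPM added and 1 library a group, and none of these contrasts was tested. Hp in gastrocnemius was higher in GRmKO than in GRf/f mice under vehicle (0.52) and lower under CORT (-0.53). Hp in gonadal WAT was lower in GRmKO mice under vehicle (-0.23) and higher under CORT (0.13), and so was Orm1 (-0.39 and 0.22). Apcs in liver was higher with CORT in GRf/f mice (0.20) and lower in GRmKO mice (-0.21). Crp in liver was higher in GRmKO mice under vehicle (0.10) and lower under CORT (-0.08). None of these 5 genes and tissues was called in the comparisons concerned.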

How the results depend on the processing

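The number of members called was within 1.5 times the reported number in all 12 comparisons under TMM factors and under DESeq2 size factors, in 11 without a filter on low counts, and in 7 with a call at 2-fold. At 2-fold, 1 member instead of 0 was called between genotypes under vehicle in gastrocnemius (Hpx) and 1 instead of 0 in gonadal WAT (Lcn2), 2 instead of 1 between genotypes under CORT in gastrocnemius (Hpx added) and under vehicle in liver (Saa2 added), and 5 instead of 3 with CORT in GRf/f gonadal WAT (Saa3 and Orm2 added). More of all genes were called at 2-fold too. In the same order of comparisons they were 7.77%, 2.22%, 9.71%, 2.3% and 13.6%, beside 3.41%, 0.781%, 3.86%, 0.561% and 7.72% with NOISeq. At 2-fold Lcn2 was also called higher with CORT in GRmKO gastrocnemius, so that it passed in 6 of 6 pairs, and Saa3 lower with CORT in liver in both genotypes. Of all genes, 6.53% were called at 2-fold in that muscle comparison, and 11.6% and 5.61% with CORT in GRf/f and GRmKO liver. Without the filter 2 instead of 1 were called between genotypes under vehicle in liver (Saa2 added), beside 0.947% of all genes instead of 0.561%. Of 112 log2 differences of members, none changed sign under either scaling or pseudocount, and 97 to 112 moved by less than their counting interval. The scalings moved the median of all genes with CORT in GRmKO mice by 0.14 and 0.13 in gastrocnemius and by 0.12 in gonadal WAT. No paired analysis was possible because each group was 1 library, and for the same reason no library could be left out. Depth limits the ratios of Lcn2 and Orm1 in gastrocnemius, whose vehicle libraries held 14.1 to 35.8 counts of them, and leaves Saa1, Saa2 and Apcs outside liver and Orm2 in muscle at or near the floor.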
